A study of Mus musculus with 7 samples.

Results

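Focal adhesions are the protein assemblies through which a cell holds the extracellular matrix, and 44 genes of these assemblies and of the actin cytoskeleton behind them were followed here. The genes were taken by symbol from a table of 24421 symbols, and all 44 were found. The messenger RNA came from stromal cells of BALB/c mice, sorted to be free of Ter119, CD45 and EpCAM, which mark red cells, leukocytes and epithelium. The 3 pCAF libraries are cancer-associated fibroblasts from tumors that had reached 1 cm after 100000 4T1-luc cells were placed in the mammary fat pad of females at 8 weeks; 4T1 is a mouse mammary carcinoma line and luc stands for its luciferase reporter. Their sort also kept cells with podoplanin (PDPN), a surface protein of many fibroblasts. The 4 NMF libraries are cells of the untreated normal fat pad of mice listed at 12 weeks, although the design text calls them age matched, and were sorted on the same 3 negative markers but not on PDPN. For pCAF replicate 3 the labels give the marker string as PDPN negative, against its title and source name. The replicates are called biological but no animals are named, so the spread behind each p-value is that among these libraries and may be technical. The tissue, the digestion mixture, the listed age and the PDPN gate all differ between the groups and cannot be told apart.

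In a focal adhesion, talin and kindlin bind the tails of integrins and switch them on. Vinculin then joins talin to actin filaments when the link is under load, and a complex of ILK, PINCH and parvin, together with paxillin and focal adhesion kinase, forms the signaling layer. Further out, alpha-actinin, filamin, palladin and LIM domain proteins such as zyxin bundle actin into stress fibers, on which nonmuscle myosin II pulls. Fibroblasts that are activated in wounds and tumors are known for large adhesions and thick stress fibers, and part of this gene set is under the control of serum response factor (SRF), whose coactivators are held back by free actin monomers.

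Total counts per library ran from 1885039 to 4990070. Replicate 1 of pCAF and replicate 4 of NMF stood apart from their own groups. Over all genes, chi-square divided by its degrees of freedom came to 3.22 for pCAF replicates 2 and 3 but to as much as 42.2 where pCAF replicate 1 was one of the pair. It was 6.47 to 10.1 among NMF replicates 1 to 3 but 35.6 or more with NMF replicate 4. All libraries were kept as separate replicates, and whether any of them share an animal was not tested. Levels are given in CPM, a gene's counts relative to its library's total after TMM scaling. Summed over 10 fibroblast markers they were 71190 to 82260 CPM in pCAF and 22960 to 42530 CPM in NMF, sums made up mostly of Col1a1, Col1a2 and Col3a1. Of the 10, 5 passed as higher (Col1a1, Col1a2, Col3a1, Lum and Pdpn) and none as lower. Only pCAF was sorted on the protein of Pdpn, so its call (11.1-fold higher) is not independent of the sort. Pdgfra had means of 208 ± 27.2 and 201 ± 58.8 CPM, and Dcn, which did not pass, of 4653 ± 1219 and 8364 ± 2544 CPM. Summed over 15 blood endothelial markers they were 130.8 to 292.3 CPM in pCAF and 2531 to 4078 CPM in NMF, with Sox17 at 0 counts in every pCAF library, and all 15 were lower in pCAF. Over 7 adipocyte markers the sums were 188.1 to 242.2 CPM against 1936 to 15730 CPM, made up mostly of Fabp4 in NMF. Of the 5 that could be tested, 4 passed as lower and Lpl did not pass. Cidec was at 0 counts in every pCAF library. Plin1 and Lep were at 0 there too, but held at most 5 counts in any NMF library and were not tested. Leukocyte markers (8 genes) summed to 27.16 to 60.27 CPM in pCAF and 28.76 to 181.6 CPM in NMF. Markers of pericytes and vascular smooth muscle (10 genes) gave overlapping sums of 429.8 to 652.9 and 380.2 to 571.5 CPM, but 3 were higher and 3 lower in pCAF. Acta2 rose 44.9-fold, Cnn1 36.2-fold and Des 3.304-fold, while Notch3 fell 5.01-fold, Mcam 9.596-fold and Rgs5 from a mean of 113 ± 53.00 to 0.3695 ± 0.6400 CPM. In bulk libraries fewer cells of a type and less RNA per cell cannot be told apart, and the part that cell makeup plays in the differences that follow was not tested.

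The adhesion and actin genes differed between tumor fibroblasts and fat pad stroma more often in the upward direction than downward. Of the 43 that passed the filter on low counts, 14 passed as higher and 5 as lower in pCAF (edgeR's quasi-likelihood test, adjusted p under 0.05), that is 44.2% of members against 28.4% of all 10535 genes tested. In the single directions the background was 14.3% higher and 14.2% lower. The median log2 fold change of the tested members was 0.65, beside -0.02 for all genes. The libraries of the groups did not overlap for 24 of the 43 tested members, 17 with pCAF above and 7 with pCAF below, where 40.4% of all tested genes were free of overlap (19% above, 21.4% below). As a share of all counts the 44 genes took up 1.899%, 1.991% and 2.112% of the pCAF libraries in replicate order and 1.597%, 1.423%, 1.462% and 1.284% of the NMF libraries. Every pCAF library held the larger share. Actb, Tmsb4x and Cfl1 make up much of it, and without them the range was 0.957% to 1.01% in pCAF and 0.792% to 0.884% in NMF.

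These counts moved with single libraries. Without NMF replicate 1, 9 members were higher; in that fit 32.6% of members and 19.6% of all genes passed in either direction. With library totals in place of TMM, 10 were higher and 6 lower, in a fit where 37.1% of all calls were higher against 50.2% with TMM. The fit with library totals called 37.2% of members and 28.7% of all genes. Without pCAF replicate 1 and NMF replicate 4 together, 23 were higher and 7 lower, in a fit that called 52.7% of all genes (25.9% higher, 26.9% lower); all 19 of the original calls were among these 30. The 11 additional ones were Tln1, Tln2, Ilk, Parva, Lpp, Tes, Lasp1, Csrp2 and Myh9, higher, and Fhl1 and Pfn1, lower.

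**Figure D1:**
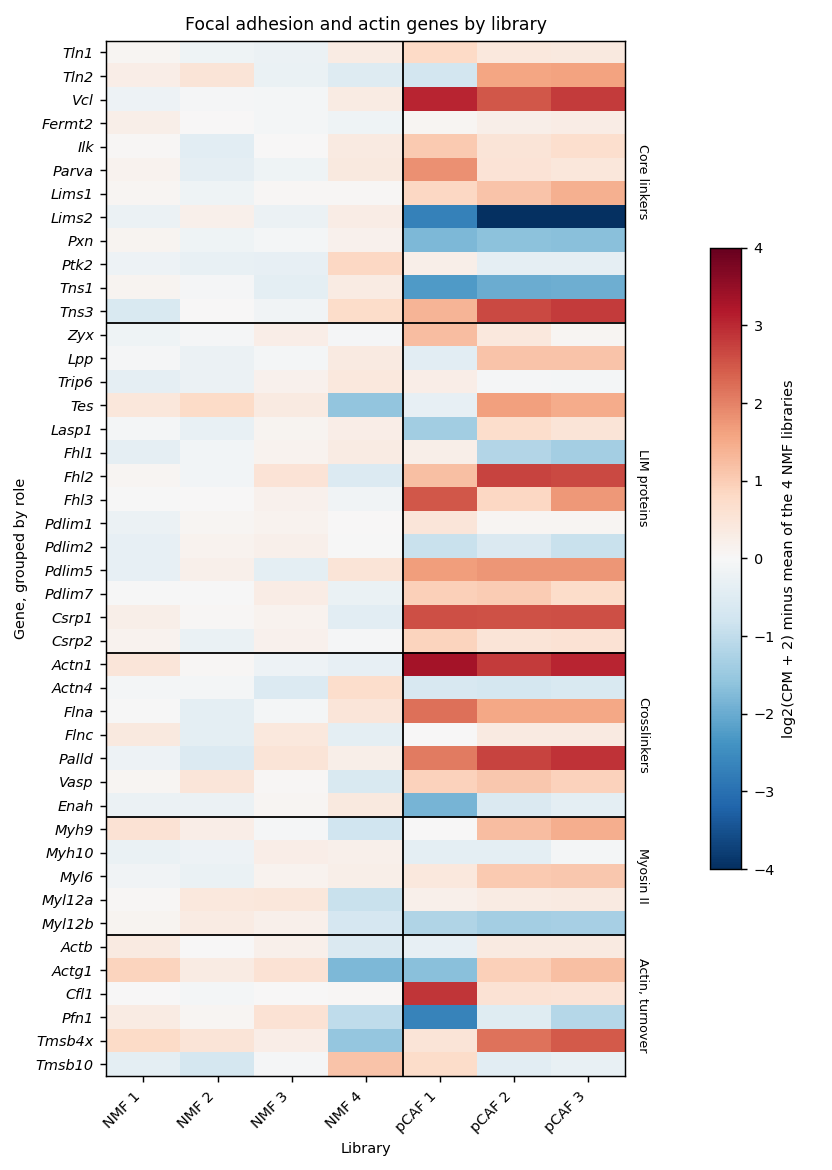
Level of each of the 44 genes (rows, grouped by role) in each of the 7 libraries (columns), as log2(CPM + 2) minus the mean of the 4 NMF libraries; red is above and blue below that mean, and colors saturate at 4. Vcl, Csrp1, Actn1 and Palld are red in all 3 pCAF libraries, and Lims2, Tns1, Pxn and Myl12b are blue in all 3.

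**Figure D2:**
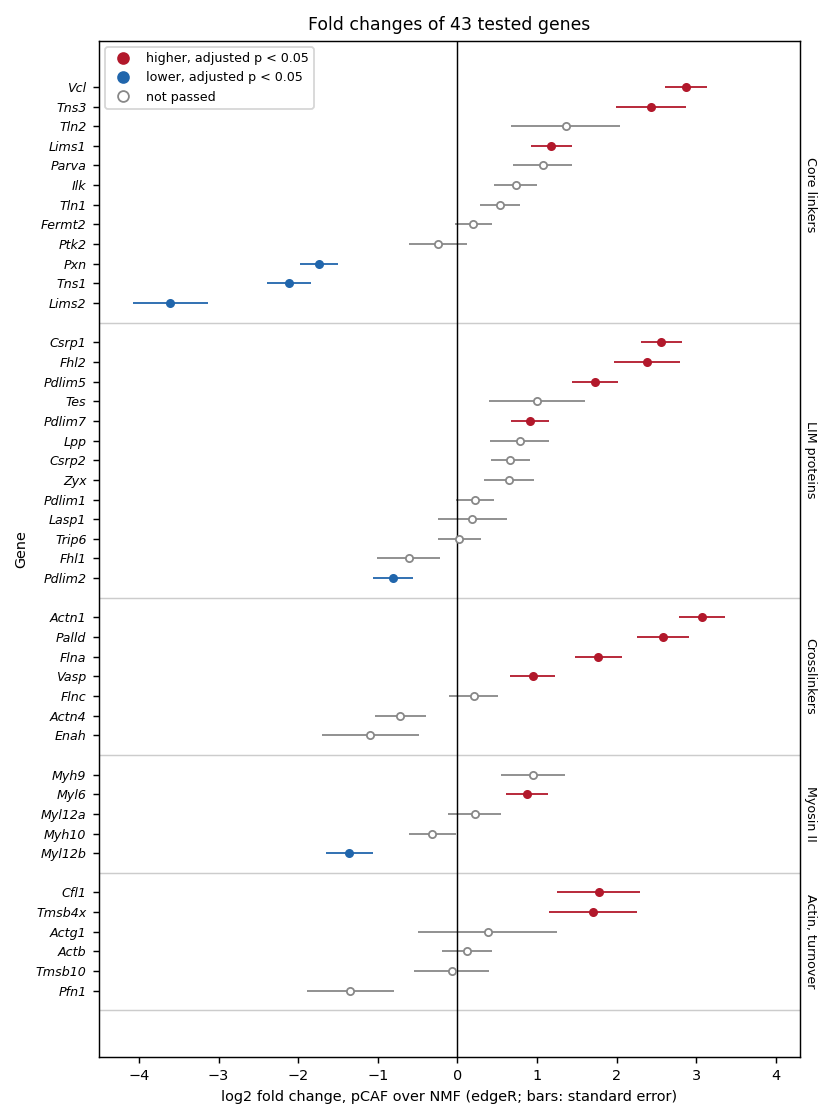
Fitted log2 fold change (horizontal axis, pCAF over NMF, edgeR) with its standard error for the 43 tested genes, ordered within each role; filled points have an adjusted p under 0.05. The points run from -3.61 for Lims2 to 3.07 for Actn1, with 14 filled points to the right of 0 and 5 to the left.

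Among the 12 core linkers, vinculin (Vcl) showed the largest rise with all 7 libraries. Vcl (mm10 chromosome 14, 20929398 to 21033676, plus strand) stood at 217, 147 and 183 CPM in pCAF replicates 1 to 3 and at 21.2, 23.6, 23.2 and 31.2 CPM in NMF replicates 1 to 4. The lowest pCAF library was far above the highest NMF library. The fold change was 7.31 (log2 2.87, SE 0.26, adjusted p = 6.40e-05). Its 3' end overlaps Ap3m1 on the other strand, and since the strand setting of the counting is not given in the sources used here, its share of those reads is uncertain. The talins, which Vcl binds, did not pass: Tln1 was at 377 ± 62.7 CPM against 259 ± 49.2 (SD, n = 3 and n = 4; adjusted p = 0.142). Tln2, the paralogue with far fewer counts (4 to 35 per library), was at 13.6 ± 9.85 against 5.36 ± 2.34 CPM (adjusted p = 0.169); leaving out pCAF replicate 1 brought it past the threshold (0.00901). Kindlin-2 (Fermt2), the other integrin activator, was at 101 ± 7.66 against 88.1 ± 10.3 CPM (adjusted p = 0.557).

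The PINCH proteins, LIM adaptors that join ILK to the rest of the complex, moved in opposite directions. Lims2 (PINCH2; chromosome 18, 31922290 to 31958619, plus strand) was at 102, 32.7 and 33.3 CPM in pCAF replicates 1 to 3 and at 568, 779.9, 566 and 821 CPM in NMF replicates 1 to 4. No pCAF library came near the NMF range, and pCAF replicate 1 held 3.096 times the mean of the other two. The level in NMF was 12.2-fold that in pCAF (log2 -3.61, SE 0.47, adjusted p = 4.64e-04), and 20.8-fold without pCAF replicate 1. The 3' end of Lims2 overlaps Gpr17 on the other strand, as those of Ilk (Rrp8 and Taf10), Zyx (Epha1) and Tes (Gm4876) do other genes, so their shares of such reads are uncertain. Lims1 (PINCH1) was at 69.3, 86.7 and 105 CPM in pCAF against 40.6, 33.8, 39.8 and 39.6 CPM in NMF, again with no overlap, but higher in pCAF (2.26-fold, SE of log2 0.25, adjusted p = 0.00654). Their partners Ilk, the kinase-like scaffold, and Parva, alpha-parvin, lay above NMF in every pCAF library without passing. Ilk stood at 581 ± 113 against 349 ± 74.2 CPM (adjusted p = 0.0656; 0.0341 without NMF replicate 4). Parva was at 366 ± 215 against 174 ± 39.9 CPM (adjusted p = 0.0539), with 0.0477 without pCAF replicate 2 and 0.0384 without pCAF replicate 3.

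The 2 tensins among the 44 genes, which tie integrin tails to actin in mature adhesions, also moved in opposite directions. Tns1 was at 56.01, 68.7 and 70.9 CPM in pCAF and at 302, 267, 212 and 348 CPM in NMF, 4.32-fold lower in pCAF (log2 -2.11, SE 0.27, adjusted p = 4.31e-04). Tns3 was at 37.7, 92.9 and 104 CPM in pCAF against 8.11, 13.5, 11.97 and 23.3 CPM in NMF, 5.405-fold higher (log2 2.43, SE 0.44, adjusted p = 0.002799). Neither gene's groups overlapped, though pCAF replicate 1 had the least Tns3 of its group. A further tensin, Tns2, named after its values were seen, was at 231 ± 93.5 against 503 ± 79.8 CPM, 2.18-fold lower (adjusted p = 0.0222). Its call did not hold when pCAF replicate 2 (0.0916) or 3 (0.0911) or NMF replicate 1 (0.0721) or 4 (0.0504) was dropped. Without pCAF replicate 1 and NMF replicate 4 together, Tns3 was 8.73-fold higher. Pxn (paxillin), the scaffold that recruits kinases to young adhesions, was tight within both groups. It read 65.4, 72.7 and 71.5 CPM in pCAF and 250.3, 206, 218 and 260.3 CPM in NMF, a 3.34-fold fall (log2 -1.74, SE 0.24, adjusted p = 5.66e-04). Focal adhesion kinase, Ptk2, which binds paxillin, had means of 58.3 ± 15.3 and 68.7 ± 31.5 CPM in pCAF and NMF (adjusted p = 0.657). In all, 3 of the 12 core linkers rose (Vcl, Tns3, Lims1), 3 fell (Lims2, Tns1, Pxn) and 6 did not pass. Thus 50% changed, beside 28.4% of all genes tested. The 3 that fell were lower in the libraries in which the sum over blood endothelial markers was also lower; whether endothelial cells carried these transcripts was not tested.

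**Figure D3:**
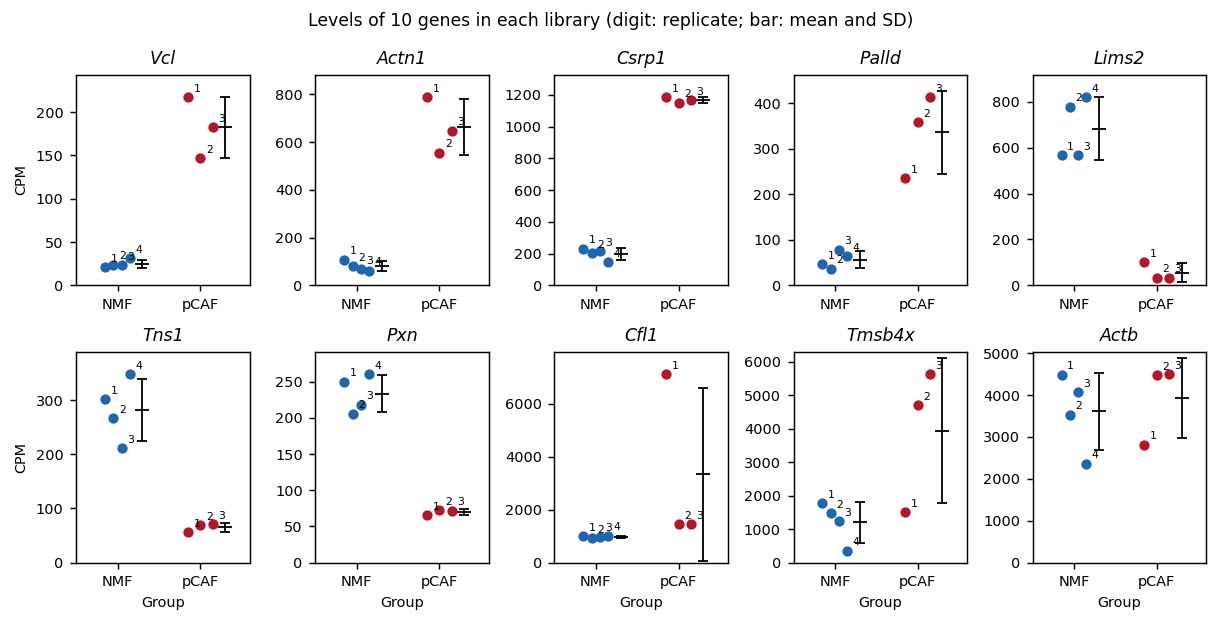
CPM (vertical axes, each from 0) of 10 genes in each library, blue for NMF and red for pCAF, with the replicate number at each point and the mean and SD beside it. Vcl, Actn1, Csrp1 and Palld show pCAF above NMF with a wide gap, Lims2, Tns1 and Pxn show the reverse, Cfl1 is far higher in pCAF replicate 1 than in any other library, and Tmsb4x and Actb overlap.

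Short stretches upstream of RefSeq gene starts (GRCm38.p6, the mm10 assembly) are shown for some members with a CArG box, the element SRF binds. They are given because SRF is a known regulator of this gene set. The capitals mark the box, and each line reads 5' to 3' in the direction of the gene. Stretches of Myl6, Trip6 and the other start of Fhl2 also hold a box but overlap an annotated exon, and are not shown. Shown are Vcl at chr14:20929148-20929210 (plus strand), Fhl2 at chr1:43163962-43164022 (minus strand, 1 of 2 starts), Actg1 at chr11:120348546-120348615 (minus), Fermt2 at chr14:45530230-45530299 (minus) and Fhl1 at chrX:56779551-56779620 (plus, 1 of 2 starts).
Vcl: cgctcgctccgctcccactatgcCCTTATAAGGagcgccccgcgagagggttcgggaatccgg
Fhl2: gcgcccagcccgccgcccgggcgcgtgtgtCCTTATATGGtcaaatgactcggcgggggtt
Actg1: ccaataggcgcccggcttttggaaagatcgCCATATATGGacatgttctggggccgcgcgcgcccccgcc
Fermt2: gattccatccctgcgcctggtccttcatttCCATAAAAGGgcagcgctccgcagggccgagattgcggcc
Fhl1: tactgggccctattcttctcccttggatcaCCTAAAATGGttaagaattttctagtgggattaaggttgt
Windows of 300 bases, from 250 before to 50 after a start, were at hand for 36 of the 44 genes. Those of Pxn, Ptk2, Csrp2, Parva, Lims2, Tln2, Actb and Pdlim2 were not used here. A CArG box, searched on both strands, was in a window of 7 of the 36 genes (19.4%): the 5 above and also Myl6 and Trip6. Among all 27025 genes with a window the share was 1.81%. It was found in 3 of 14 members that rose (21.4%), in 4 of 19 that did not pass (21.1%) and in 0 of the 2 that fell and had a window. The motif GGAATG, bound by TEAD factors, was in 10 of the 36 (27.8%) against 16.6% of all genes, and TGTGGT, the core bound by RUNX factors, in 8 of the 36 (22.2%) against 18.9%, each counted on both strands. In Trip6 a GGAATG match overlaps a TGTGGT match. These matches describe sequence only and say nothing on binding in these cells.

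LIM domain proteins of adhesions and stress fibers numbered 14, of which 13 were tested, with 4 higher and 1 lower. That is 38.5% changed, beside 28.4% of all genes tested. Csrp1, a cysteine-rich LIM protein on actin bundles, varied little within pCAF. It was at 1185, 1149 and 1165 CPM in pCAF and at 229, 202, 214 and 145 CPM in NMF, 5.904-fold higher (log2 2.56, SE 0.26, adjusted p = 9.88e-05). Its relative Csrp2 was at 829 ± 122 against 522 ± 69.2 CPM (adjusted p = 0.0668), which fell short of the threshold although the groups did not overlap. Fhl2, a LIM-only protein that shuttles between adhesions and the nucleus, was at 49.9, 145 and 137 CPM in pCAF and 21.6, 19.00, 30.98 and 13.4 CPM in NMF. Its groups did not overlap, with pCAF replicate 1 closest to NMF, and it was 5.21-fold higher (log2 2.38, SE 0.42, adjusted p = 0.00226). Fhl1 was at 280.1, 106 and 92.01 CPM in pCAF and 187, 222, 267 and 300.5 CPM in NMF. Here pCAF replicate 1 reached into the NMF range while the other pCAF libraries lay below it; the difference did not pass (adjusted p = 0.282) but did without pCAF replicate 1 (2.47-fold lower, 0.00343). Fhl3 was the 1 member below the count filter, with 21, 4 and 11 counts in the pCAF libraries and 1, 1, 2 and 1 in those of NMF. Its summed counts were 36 and 5, and with no filter it was 14.6-fold higher (SE of log2 0.97, adjusted p = 0.00905 over 16554 genes); a near-identical pseudogene copy of its 3' end makes its count uncertain.

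The PDZ-LIM proteins dock on alpha-actinin, and they went both ways. Pdlim5 rose 3.32-fold, at 113, 121 and 121 CPM in pCAF against 26.7, 39.3, 25.7 and 50.2 CPM in NMF (log2 1.73, SE 0.29, adjusted p = 0.00186). Pdlim7, known as Enigma, was at 225, 234 and 193 against 112, 112, 142 and 95.4 CPM and 1.88-fold higher (adjusted p = 0.0167). That call was lost without pCAF replicate 2 (0.0637), NMF replicate 1 (0.0577) or NMF replicate 2 (0.0554), and with library totals (0.0537). Pdlim2, which also acts as a ubiquitin ligase in the nucleus, was the 1 LIM gene that fell, at 105, 132 and 107 against 159, 218, 229 and 198 CPM (1.75-fold, adjusted p = 0.0325). It no longer passed without pCAF replicate 2 (0.0619) or 3 (0.117), or on leaving out NMF replicate 2 (0.0818) or 3 (0.0974). Pdlim1, or CLP36, was at 182 ± 32.1 against 156 ± 16.7 CPM (adjusted p = 0.529).

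Zyxin, which gathers where stress fibers are strained, and its relatives Lpp and Trip6 did not pass. Zyx was at 1062, 602 and 476 CPM in pCAF and 405, 434, 544 and 437 CPM in NMF, where pCAF replicate 3 lay inside the NMF range (adjusted p = 0.145). Lpp, of the zyxin family, was at 44.4, 137 and 135 CPM in pCAF and 58.7, 51.1, 57.7 and 78.1 CPM in NMF (adjusted p = 0.1499). Its pCAF replicate 1 was the lowest library of all 7, and without it Lpp was 2.205-fold higher (0.00319). Trip6, likewise of that family, was at 88.03 ± 12.6 against 86.4 ± 21.9 CPM (adjusted p = 0.959). Tes (testin), a zyxin partner, was at 54.7 ± 31.8 against 27.6 ± 14.8 CPM (adjusted p = 0.248). Lasp1, an actin-binding LIM and SH3 protein, was at 222 ± 131 against 194 ± 31.8 CPM (adjusted p = 0.784). The spread within pCAF came mostly from replicate 1 for Lpp, Tes and Lasp1, as each was lowest there within its group.

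Of the 7 actin crosslinkers and assembly factors 4 rose and none fell (57.1% changed, beside 28.4% of all genes tested). Actn1 (alpha-actinin-1; chromosome 12, 80167547 to 80260371, minus strand), which bundles stress fibers, had the largest fold rise of the tested members with all 7 libraries. It was at 789, 555 and 649 CPM in pCAF and 108, 80.2, 66.9 and 61.6 CPM in NMF, 8.39-fold higher (log2 3.07, SE 0.29, adjusted p = 7.07e-05). Actn4, the other nonmuscle alpha-actinin, was at 506, 479.9 and 517 CPM in pCAF and 746, 739, 539 and 1269 CPM in NMF. Each pCAF library lay below each NMF library, but NMF replicate 4 held far more than the other three and the difference did not pass (adjusted p = 0.118; 0.04797 with library totals). Its 3' end overlaps Capn12 on the other strand, so its share of those reads is uncertain. Palld (palladin), a scaffold of stress fiber dense regions, was at 235, 358 and 413 CPM in pCAF and 46.7, 36.3, 77.8 and 63.3 CPM in NMF. It was 5.97-fold higher (log2 2.58, SE 0.33, adjusted p = 3.97e-04), with no overlap.

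Flna (filamin A), which crosslinks actin into elastic networks and binds integrin tails, was at 1127, 727 and 714 CPM in pCAF and 245, 185, 233 and 341 CPM in NMF. The rise was 3.41-fold (log2 1.77, SE 0.30, adjusted p = 0.00178). The muscle-type filamin, Flnc, averaged 66.7 ± 9.29 CPM in pCAF and 57.9 ± 18.8 CPM in NMF (adjusted p = 0.662). Vasp, which speeds filament elongation at adhesions, was at 138, 152 and 137 CPM against 75.3, 101, 74.3 and 46.5 CPM and 1.92-fold higher (adjusted p = 0.0311). The Vasp call did not hold without pCAF replicate 2 (0.0895) or 3 (0.0674), nor on dropping NMF replicate 1 (0.0802) or 3 (0.0768) or with library totals (0.0907). Enah (Mena), of the same family, held only 2 to 69 counts per library and was at 4.46 ± 2.95 against 9.52 ± 2.47 CPM (adjusted p = 0.208).

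Nonmuscle myosin II is built from heavy chains and a pair of light chain types, and its 5 genes did not move as one. Myl6, the essential light chain, was at 420.4, 649 and 661 CPM in pCAF and 284, 261, 343 and 369 CPM in NMF, 1.83-fold higher (adjusted p = 0.0323), with no overlap. This call was among the weakest: it was lost when pCAF replicate 2 (0.113) or 3 (0.114) was left out, or NMF replicate 1 (0.0962), 2 (0.1003) or 3 (0.06604), with library totals (0.107) and with no filter (0.0548). Its 3' end has 5 near-identical pseudogene copies. Of the regulatory light chains, whose phosphorylation turns the motor on, Myl12b fell and Myl12a did not pass. Myl12b was at 123, 112 and 115 CPM in pCAF and 315, 366, 335 and 179.8 CPM in NMF, 2.56-fold lower (log2 -1.36, SE 0.29, adjusted p = 0.006799). Myl12a was at 754, 824 and 847 CPM in pCAF and 674, 873, 888 and 349.8 CPM in NMF (adjusted p = 0.6696), with NMF replicate 4 below all other libraries. The annotated models of Myl12a and Myl12b overlap on the same strand and their 3' ends match each other and 2 pseudogenes, so how the reads were split between them is uncertain.

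The heavy chain Myh9 was at 265, 627 and 731 CPM in pCAF and 395, 320.5, 256 and 150.3 CPM in NMF. In pCAF replicate 1 it lay within the NMF range (adjusted p = 0.108). Among the 7 single-library omissions it passed without that library alone (0.0134). Myh10, the other widespread heavy chain, was at 25.6 ± 3.73 against 31.8 ± 6.22 CPM (adjusted p = 0.477).

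The genes for actin and its monomer-binding and severing proteins include the most heavily counted members, and 2 of the 6 rose. These make 33.3% changed, near the 28.4% of all genes tested. Actb, cytoplasmic beta-actin, was at 2816, 4473 and 4497 CPM in pCAF and 4482, 3536, 4071 and 2359 CPM in NMF. Its groups overlapped (log2 fold change 0.12, SE 0.31, adjusted p = 0.807), and its sign turned with library totals and without NMF replicate 4. Actg1, gamma-actin, held 3 to 50 counts per library and was at 1.66, 20.3 and 24.9 CPM in pCAF and 19.3, 12.7, 15.5 and 1.31 CPM in NMF. It was very low in pCAF replicate 1 and in NMF replicate 4. The difference did not pass (adjusted p = 0.785); the last bases of its transcript match 13 other annotated genes, so how many of its reads were counted is uncertain. Cfl1 (cofilin-1), which severs old filaments, was at 7102, 1453 and 1436 CPM in pCAF and 989, 912, 980.4 and 1013 CPM in NMF. The pCAF values were far from even, since pCAF replicate 1 held 4.92 times the mean of the other two pCAF libraries. With all libraries Cfl1 was 3.42-fold higher (adjusted p = 0.0285), and without pCAF replicate 1 it was 1.48-fold higher and still passed (0.04502). The call was lost when any 1 NMF library was left out (0.0802, 0.0816, 0.07197 and 0.0629 for replicates 1 to 4) and with limma-voom (0.0686). Its 3' end overlaps Snx32 on the other strand and matches 2 pseudogenes, which makes its count uncertain.

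Tmsb4x (thymosin beta-4), the main buffer of free actin monomers, was at 1496, 4711 and 5628 CPM in pCAF and 1776, 1477, 1236 and 354 CPM in NMF. Replicate 1 of pCAF lay among the NMF libraries, and NMF replicate 4 was the lowest of the 7. The rise was 3.26-fold (log2 1.70, SE 0.55, adjusted p = 0.0425). The call failed on leaving out pCAF replicate 2 (0.103) or 3 (0.132) or NMF replicate 1 (0.0607), 2 (0.0852) or 3 (0.0914), with limma-voom (0.0556) and with library totals (0.0729). Tmsb10, the related thymosin, was at 127 ± 61.1 against 133 ± 85.4 CPM (adjusted p = 0.928); it has 1 near-identical copy, Gm9844. Pfn1 (profilin-1), which feeds monomers to growing filament ends, was at 7.21, 39.99 and 24.4 CPM in pCAF and 71.5, 59.5, 85.2 and 27.1 CPM in NMF. Its groups overlapped through NMF replicate 4, and it did not pass (adjusted p = 0.09404) except without pCAF replicate 2 (0.0494) among the single-library omissions.

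Ratios of related genes within a library do not depend on the scaling, and 14 pairs were compared. For 10 of them the pCAF and NMF libraries did not overlap, where 40.4% of all single genes tested had no overlap. A ratio is another measure than the level of 1 gene, and no share over other gene pairs was counted. The pairs also hold members whose own levels did not overlap. With 3 against 4 libraries the two-sided exact permutation test cannot go below 0.0571, which each of these 10 reached, and no pair could pass 0.05 (0.0799 after adjustment over the 14 pairs). The count ratio of Lims1 to Lims2 was 0.6802, 2.64 and 3.15 in the pCAF and 0.0717, 0.0436, 0.0705 and 0.0483 in the NMF libraries, a 31.2-fold difference of geometric means (log2 4.96, and 5.66 without pCAF replicate 1). PINCH1 counts thus outnumbered PINCH2 counts in 2 pCAF libraries and in no NMF library. For Tns1 to Tns3 the ratio was 1.48, 0.7402 and 0.682 in pCAF and 36.4, 19.5, 17.4 and 14.9 in NMF (22.8-fold). The alpha-actinin ratio, Actn1 to Actn4, was 1.56, 1.16 and 1.25 in pCAF and 0.145, 0.109, 0.124 and 0.0486 in NMF (13.3-fold), so it crossed 1 between the groups. The same crossing was seen for Csrp1 to Csrp2, at 1.22, 1.54 and 1.51 in pCAF and 0.405, 0.466, 0.364 and 0.289 in NMF (3.77-fold).

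Among the other pairs, Pdlim2 to Pdlim5 stood at 0.936, 1.09 and 0.882 in pCAF and 5.94, 5.53, 8.86 and 3.93 in NMF (6.02-fold). Myl12a to Myl12b differed 3.05-fold, Flna to Flnc 2.86-fold and Pdlim1 to Pdlim7 1.63-fold, without overlap. Fhl1 to Fhl2 was 5.59, 0.736 and 0.673 in pCAF and 8.56, 11.5, 8.57 and 22.2 in NMF, where pCAF replicate 1 stood between the other pCAF libraries and NMF. Without that library its log2 difference went from -3.06 to -4.06. The ratio of Fhl1 to Fhl3 differed 18.03-fold but rests on 1 or 2 Fhl3 counts per NMF library. Overlap was seen for Tln1/Tln2 (exact permutation p = 0.743), Myh9/Myh10 (0.171), Actb/Actg1 (0.629) and Tmsb4x/Tmsb10 (0.286).

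**Figure D4:**
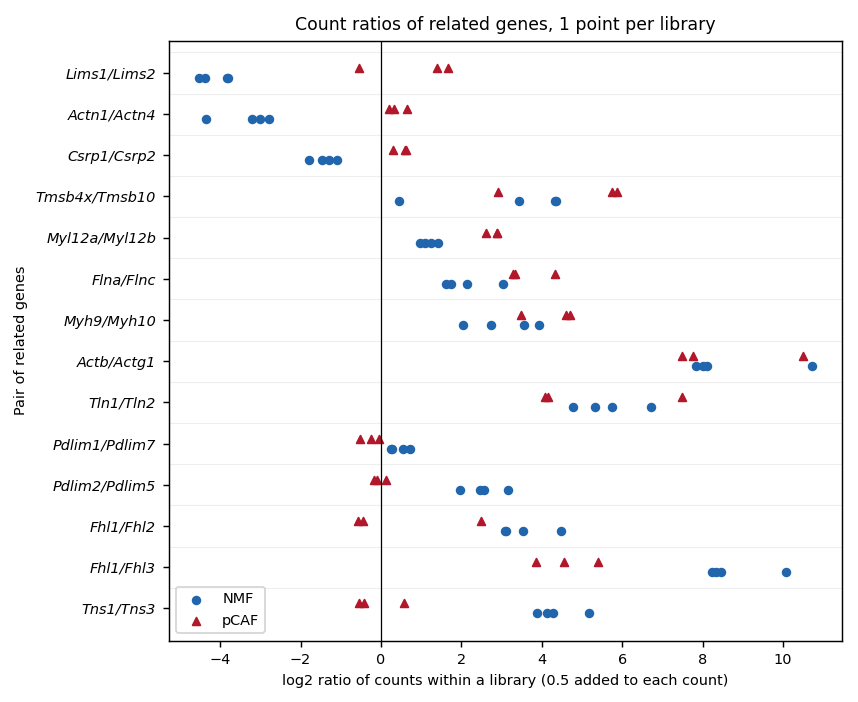
Ratio of counts of 2 related genes within each library (horizontal axis, log2, with 0.5 added to each count), blue circles for the 4 NMF and red triangles for the 3 pCAF libraries, 1 row per pair. For Lims1/Lims2, Actn1/Actn4, Csrp1/Csrp2 and Tns1/Tns3 a clear gap separates the groups, and Tln1/Tln2, Myh9/Myh10, Actb/Actg1 and Tmsb4x/Tmsb10 overlap.

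Beyond the 44 genes, 6 lists of other adhesion and actin genes (90 symbols, 82 tested) held 15 higher and 10 lower, 30.5% changed against 28.4% of all genes, with a median log2 fold change of 0.40. Among adhesion adaptors and kinases (14 tested, 57.1% changed) 2 rose and 6 fell. Parvb, beta-parvin, fell from 32.7 ± 11.2 to 4.09 ± 1.62 CPM (7.89-fold, adjusted p = 0.00117), opposite in sign to the higher level of Parva, which did not pass. Fblim1 (migfilin), a filamin partner, rose from 22.1 ± 11.2 to 122 ± 56.1 CPM (adjusted p = 0.00409) and Bcar1 (p130Cas), a stretch-sensitive docking protein, from 34.9 ± 7.49 to 92.4 ± 18.1 CPM (adjusted p = 0.00419). Other LIM genes (10 tested, 30% changed, near the share of all genes) gave 1 higher and 2 lower. Ablim1, an actin-binding LIM protein, fell 11.5-fold (adjusted p = 7.58e-05) and Crip2 6.07-fold (adjusted p = 1.50e-04), while Ajuba, of the zyxin family, rose 3.08-fold (adjusted p = 0.0142).

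The largest difference in these lists was in filament turnover and capping (15 tested, 3 higher, 1 lower). Its 26.7% changed was near the 28.4% of all genes. Gsn, the filament-severing gelsolin, was at 499, 549 and 397 CPM in pCAF replicates 1 to 3 and at 13145, 13962, 18672 and 13133 CPM in NMF replicates 1 to 4. The NMF level was 30.6-fold that in pCAF (log2 -4.93, SE 0.33, adjusted p = 2.69e-05). In the same list Capza2, a capping protein subunit, rose 3.68-fold (adjusted p = 0.00111) and Wdr1, a cofilin cofactor, 2.197-fold (adjusted p = 0.0168). The Wdr1 call failed without pCAF replicate 2 (0.0788) or 3 (0.0593), or NMF replicate 1 (0.0515), and with library totals (0.0541).

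Genes of branched and linear actin nucleation (17 tested) gave 3 higher and 1 lower, 23.5% changed and so below the 28.4% of all genes. Wasf2, a WAVE subunit that activates Arp2/3, fell 10.5-fold (adjusted p = 7.51e-04), and its partner Abi1 rose 2.496-fold (adjusted p = 0.0182). Arpc2, an Arp2/3 subunit, rose 1.98-fold (adjusted p = 0.0307), which no longer passed on leaving out pCAF replicate 2 (0.106) or 3 (0.107), or NMF replicate 1 (0.0629), 2 (0.0664) or 3 (0.0664), or with library totals (0.0916). Bundling and membrane linker genes (12 tested, 33.3% changed) gave 4 higher and none lower. Tpm4, a stress fiber tropomyosin, was at 626 ± 202 against 95.2 ± 15.3 CPM (adjusted p = 1.34e-04). The filament bundlers Pls3 (plastin-3) and Fscn1 (fascin) rose 3.702-fold and 2.01-fold (adjusted p = 0.00949 and 0.0184). Without NMF replicate 4, Pls3 was 5.55-fold higher. The Fscn1 call was lost without NMF replicate 1 (0.0616) or 2 (0.06005).

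Within the groups, 6 members deviated by more than 1 on the log2 scale, in the same direction, in both pCAF replicate 1 and NMF replicate 4. The share of all genes that did so in both libraries was not counted, so whether 6 is many cannot be said. Between pCAF replicates 2 and 3, none of the 43 tested members differed by more than 1 on the log2 CPM scale. Between pCAF replicate 1 and the mean of those 2 libraries 16 did (37.2%, against 44.4% of all genes), 5 of them higher in replicate 1 (Cfl1, Lims2, Fhl1, Parva and Tmsb10) and 11 lower. NMF replicate 4 differed by more than 1 from the mean of NMF replicates 1 to 3 for 9 members (20.9%, against 19.2% of all genes), 3 higher and 6 lower. Actg1, Tmsb4x, Tes, Pfn1 and Myh9 were low in both of these libraries and Tmsb10 high in both, which makes the 6 shared ones. Across the 43 members the deviations of the 2 libraries had a Pearson correlation of 0.553 and a Spearman correlation of 0.428, beside 0.114 and 0.135 across all 10535 genes. These correlations describe genes, which are not independent replicates, and what sets these 2 libraries apart was not tested.

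**Figure D5:**
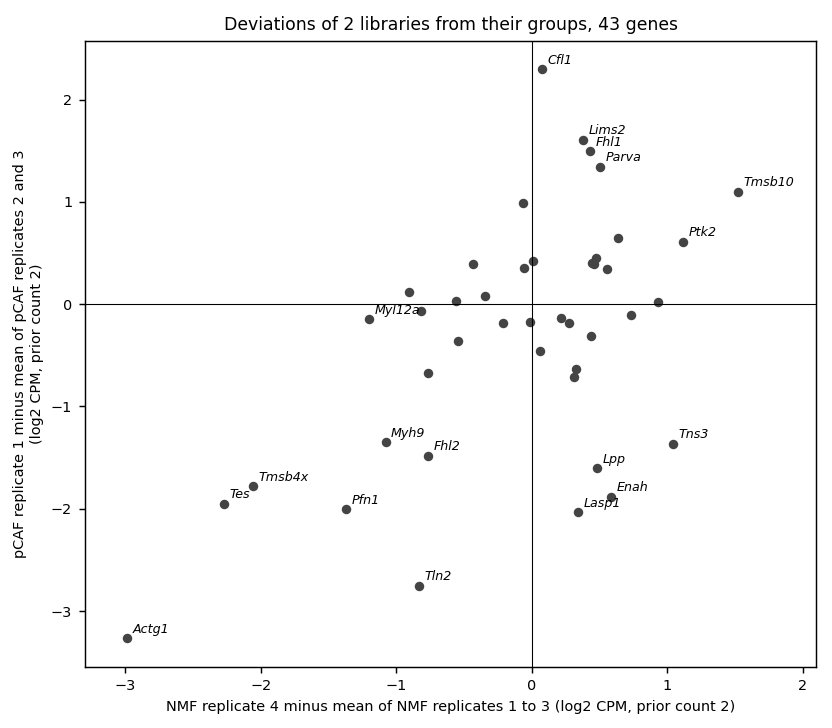
Deviation of NMF replicate 4 from NMF replicates 1 to 3 (horizontal axis) and of pCAF replicate 1 from pCAF replicates 2 and 3 (vertical axis), both in log2 CPM with a prior count of 2, 1 point per tested gene, named where either exceeds 1. Actg1, Tes and Tmsb4x lie low on both axes, Tmsb10 lies high on both, and Cfl1 is highest in pCAF replicate 1 while near 0 on the other axis.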

How the data were processed

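RNA of 3 pCAF and 4 NMF samples was made into 3' end libraries, per the labels' protocols. The authors deposited 1 table of raw counts per gene symbol; bcl2fastq, STAR 2.4.2a, HTSeq and build mm10 are named in the submitters' processing notes. The strand setting and annotation are not given in the sources used here. Counts were tested with edgeR 4.0.16 in R 4.3.3 (filterByExpr, TMM factors, robust quasi-likelihood F test, Benjamini-Hochberg adjustment over 10535 genes, threshold 0.05). Each SE is the log2 fold change divided by the square root of F. The members and lists were chosen with earlier results of these data known. Up to 4 members per role with the smallest adjusted p, and up to 3 others, were given by library, and up to 3 genes per further list; 1 of the 6 further lists is counted in the totals but not reported on its own here. Pair ratios had 0.5 added to each count. Copies were sought with blastn 2.17.0 in the last 300 bases of GENCODE M21 transcripts (at least 80 bases at 95% identity), and overlaps within the last 1000 bases. Alternatives numbered 17, with DESeq2 1.42.0 and limma 3.58.1 among them. On simulated data with 200 of 10535 genes changed 4-fold, the pCAF against NMF test recovered 57%. It called 121 genes there, 7 of them unchanged. The adjusted threshold depends on how many genes change, and 2994 were called in the data, so 57% need not hold for them. The simulated libraries were also drawn independently around shared means. None of them was made to stand apart over many genes, as pCAF replicate 1 and NMF replicate 4 did.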

Additional observations from a re-analysis of the deposited data

Results flagged for a closer look

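Among 44 members, each looked at over the 4 NMF libraries, 2 had 1 library far from the other three. The gap to the nearest library, as a share of the whole range, exceeded Dixon's critical value for 4 samples, which chance gives in about 1 in 20 such groups. Lims1 was at 33.8 CPM in NMF replicate 2, below the 39.6 to 40.6 CPM of the others (0.858 of the range). All 4 of these values lie below the lowest pCAF library. Ptk2 was at 115.8 CPM in NMF replicate 4, above the 50.7 to 56.0 CPM of the others (0.918 of the range).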

How the results depend on the processing

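Of the 19 calls among members, 13 were kept in all 17 alternatives (Vcl, Lims1, Lims2, Pxn, Tns1, Tns3, Fhl2, Pdlim5, Csrp1, Actn1, Flna, Palld and Myl12b), and Pdlim2, Pdlim7, Vasp, Myl6, Cfl1 and Tmsb4x lost theirs in at least 1. With 1 library left out at a time, 9 to 17 members were higher and 4 to 6 lower, and their median log2 fold change ran from 0.53 to 0.74. Of the other pathway genes 10 to 20 were higher and 7 to 11 lower. In these fits 32.6% to 53.5% of members passed in either direction, beside 19.6% to 38.1% of all genes. Without pCAF replicate 1 and NMF replicate 4 together 23 members and 32 other pathway genes were higher, with Lasp1 at 0.69. That fit called 25.9% of all genes higher. DESeq2's test called 53.5% of members and 34.8% of all genes, and limma-voom 39.5% and 27.1%.

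With library totals the median of all genes went from -0.02 to -0.26 and that of the members from 0.65 to 0.38. Under that scaling the sign turned for Fermt2 (-0.033), Trip6 (-0.22), Lasp1 (-0.0067), Pdlim1 (-0.028), Flnc (-0.022), Myl12a (-0.014) and Actb (-0.098), none of which passed. Other sign changes among members that did not pass were Trip6 with the upper quartile (-0.026) and with no filter (-0.0093), and Lasp1 (-0.0596) and Tmsb10 (0.0104) with limma-voom. With 1 library left out, log2 fold changes crossed 0 for Trip6 (-0.11 to 0.20), Lasp1 (-0.15 to 0.60), Ptk2 (-0.49 to 0.16), Actb (-0.021 to 0.31), Actg1 (-0.12 to 0.93) and Tmsb10 (-0.55 to 0.51), and so did the log2 ratios Tln1/Tln2 (-1.52 to 0.18) and Actb/Actg1 (-1.05 to 0.59). The causes were not tested.

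Replicate numbers did not pair the libraries: correlations of same-numbered deviations were -0.0932, 0.0794 and -0.0132, and none of the libraries correlated best with its own number. With the replicate number as a block 9 members and 7 other pathway genes were higher (30.2% of members and 19% of all genes passed in either direction), and Ptk2 (0.11), Actb (-0.0606), Actg1 (-0.35) and Tmsb10 (0.40) changed sign. Low counts limit Fhl3, Tln2, Enah and Actg1, whose smallest library counts were 1, 4, 2 and 3. For Actg1 the library with the largest total, NMF replicate 4 (4990070), held only 7 counts. Those of NMF replicates 1 to 3 were 50, 30 and 44.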
